A study of Mus musculus with 4 samples.

Results

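Heat-shock chaperones were followed through single-cell RNA-seq of AT2 cells of mouse lung (alveolar type 2 cells, which make surfactant). The 10 genes were Hspa1a, Hspa1b, Hspa8, Hspa4l, Hsph1, Dnajb1, Hsp90aa1, Stip1, Hspb1 and Serpinh1, matched by symbol among the 27998 genes of the files. They were chosen with levels from these libraries already known, among them low levels after bleomycin at 3 months, so their levels and ratios are given as a description with no test.

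All mice carried Sftpc-creER;Rosa26-mTmG and received 4 doses of tamoxifen, which switches on membrane GFP in cells that express Sftpc and in their descendants, 14 days before the instillation. Each group was 1 library made from 3 pooled mice: 12-month mice harvested on day 30 after intratracheal bleomycin (0.8 U/kg), 3-month mice at day 30 after bleomycin, 12-month mice given PBS and 3-month mice given PBS, with both PBS libraries labelled day 0. Sorting kept GFP-positive cells without CD45, a leukocyte marker, or CD31, an endothelial marker, and their RNA was counted with a 10x Genomics 3' kit. The comparisons set bleomycin against PBS at each age and 12 months against 3 months within each treatment. Treatment and day of harvest cannot be told apart, nor can a group and its 1 library.

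Cells with at least 500 genes, at most 20% mitochondrial counts and Sftpc at 5% or more of counts were used. These were 2450 of 2993 passing cells in the 12-month bleomycin library, 2299 of 2624 in 3-month bleomycin, 2570 of 2745 in 12-month PBS and 2308 of 2394 in 3-month PBS. Between 16 and 26 cells per library lay just below the Sftpc limit, at 4 to 5%, and between 23 and 72 just above it, at 5 to 6%. All 12 AT2 markers stood at 20 CPM or more in each of the 4 libraries (CPM, the summed counts of the AT2 cells scaled to a library total of 1000000). Median counts per cell were 12520 in 12-month bleomycin, 8552 in 3-month bleomycin, 5137.5 in 12-month PBS and 4563.5 in 3-month PBS. The libraries shared 7 to 14 cell barcodes per pair. Intervals in brackets are exact 95% intervals and cover counting error only, because no group has a second library.

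Heat-shock proteins are chaperones that bind unfolded or misfolded proteins. When such proteins build up, the factor HSF1 forms trimers, binds heat-shock elements in promoters and switches on the inducible members of the family. HSP70 proteins work with J-domain cochaperones, which deliver clients, and with HSP110 proteins, which exchange nucleotide, and pass some clients to HSP90. Tissue digestion and cell sorting are also known to induce these genes. Handling was not measured, and its part in the levels was not tested.

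Hspa1a (chromosome 17, 34969190 to 34972156, minus strand, GENCODE M21 on GRCm38) and Hspa1b (chromosome 17, 34956436 to 34959238, minus strand) are neighbouring genes with 1 exon each. On the same build, Hspa8 lies on chromosome 9 (40800984 to 40810087), Hspa4l on 3 (40744495 to 40796103), Hsph1 on 5 (149614287 to 149636376), Dnajb1 on 8 (83608193 to 83612653), Hsp90aa1 on 12 (110690605 to 110702728), Stip1 on 19 (7020702 to 7039967), Hspb1 on 5 (135887919 to 135889563) and Serpinh1 on 7 (99345376 to 99353239). Their coding sequences were identical at 99.6% of 1923 aligned bases, while the transcribed sequence after the stop codon was identical at 60.8% of 615 aligned bases. How counts divide between them is therefore uncertain to the extent that reads fell in the coding sequence. RefSeq promoter windows on GRCm38.p6 (250 bases before and 50 after a start) were found for 8 of the 10 genes. These windows were searched on both strands for the 2-unit heat-shock element in both of its arrangements, GAANNTTC and TTCNNGAA, each of which reads the same on either strand. At least 1 match stood in the windows of Hspa1a, Hspa1b, Hsph1 and Hspb1, that is 4 of 8 genes, against 4587 of 27025 genes with a window (17%). Of the lists described further on, a match stood in 11 of 23 other cytosolic chaperones with a window, 3 of 7 TRiC subunits, 3 of 7 mitochondrial chaperones, 0 of 13 endoplasmic reticulum chaperones and 0 of 2 heat-shock factor genes. It stood in 2 of 13 collagen genes, 1 of 15 immediate early genes and 0 of 10 oxidant, metal and proteasome genes. The TRiC and mitochondrial lists, with shares of 42.9% each, had 0 genes past 2-fold in 3-month bleomycin over 3-month PBS. The other cytosolic chaperones, with a share of 47.8%, had 6 of 23 measured genes at least 2-fold lower and 0 higher. Of all genes counted there, 3.34% were lower and 2.71% higher by 2-fold. Whether a match goes with a difference in level was not tested. The 250 bases before the start are shown for Hspa1a, Hspa1b, Hsph1 and Hspb1, with matches in capitals. They lie at chr17:34972157-34972406 (minus strand), chr17:34959239-34959488 (minus strand), chr5:149636316-149636565 (minus strand, the first of 2 annotated starts) and chr5:135887669-135887918 (plus strand).
Hspa1a: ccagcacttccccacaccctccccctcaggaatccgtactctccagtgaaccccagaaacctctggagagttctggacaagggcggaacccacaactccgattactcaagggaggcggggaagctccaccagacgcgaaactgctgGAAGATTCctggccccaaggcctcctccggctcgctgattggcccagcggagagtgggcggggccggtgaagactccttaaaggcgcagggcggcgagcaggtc
Hspa1b: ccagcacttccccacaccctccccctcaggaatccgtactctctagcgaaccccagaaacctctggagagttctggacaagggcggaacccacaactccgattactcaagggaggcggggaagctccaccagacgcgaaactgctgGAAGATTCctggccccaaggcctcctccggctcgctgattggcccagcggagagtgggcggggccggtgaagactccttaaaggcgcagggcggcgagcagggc
Hsph1: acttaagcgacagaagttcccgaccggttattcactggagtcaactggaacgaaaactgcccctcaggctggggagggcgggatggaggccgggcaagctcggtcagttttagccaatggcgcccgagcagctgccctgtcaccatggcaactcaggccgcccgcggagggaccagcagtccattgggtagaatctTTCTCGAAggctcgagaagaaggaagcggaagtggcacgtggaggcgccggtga
Hspb1: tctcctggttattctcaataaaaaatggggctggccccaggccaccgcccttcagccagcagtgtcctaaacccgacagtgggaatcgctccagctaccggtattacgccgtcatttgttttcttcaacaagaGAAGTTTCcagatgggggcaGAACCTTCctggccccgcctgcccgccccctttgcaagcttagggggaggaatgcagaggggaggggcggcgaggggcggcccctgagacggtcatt
The Hspa1a and Hspa1b stretches were identical at 247 of 250 bases (98.8%), and the single match began 104 bases before the start in both. These 2 genes are therefore not separate cases among the 4 with a match. The Hsph1 window held 2 more matches after the start, which overlap each other, and the first of the matches in Hspb1 began 117 bases before its start. No match in the other windows says only that these letters are absent there.

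The 3-month PBS library stood apart: all 10 genes had their highest level there, and no interval of that library overlapped that of the next library. Summed over the 10 genes, levels were 1289 CPM in 12-month bleomycin, 1165 in 3-month bleomycin, 971 in 12-month PBS and 2690 in 3-month PBS. Without Hspa8 the sums were 463, 493, 402 and 1586 CPM in the same order. The lowest level was that of 12-month PBS for 7 genes and of 12-month bleomycin for Hspa1b, Hsp90aa1 and Hspb1. Every comparison against 3-month PBS rests on that 1 library. The library also had the lowest median count per cell, given above, and the highest median mitochondrial share, 5.23%, against 2.19% in 12-month bleomycin, 3.44% in 3-month bleomycin and 5.08% in 12-month PBS. Erythroid and ciliated markers stood highest in it too: erythroid markers summed to 0.0628 CPM in 12-month bleomycin, 0.144 in 3-month bleomycin, 0 in 12-month PBS and 12.3 in 3-month PBS, and ciliated markers to 96.7, 189, 197 and 289 CPM in that order. Of 3 erythroid markers 1, 2, 0 and 3 were detected in that order, with Hbb-bs at 0 in all but 3-month PBS, and all 6 ciliated markers were detected in each library. The summed AT2 markers stood lowest in it, at 195893 CPM, against 232117 in 12-month bleomycin, 236715 in 3-month bleomycin and 219468 in 12-month PBS. The part of all these in the levels was not tested. The 2 comparisons without 3-month PBS are 12-month bleomycin with 12-month PBS and 12-month with 3-month bleomycin.

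**Figure D1:**
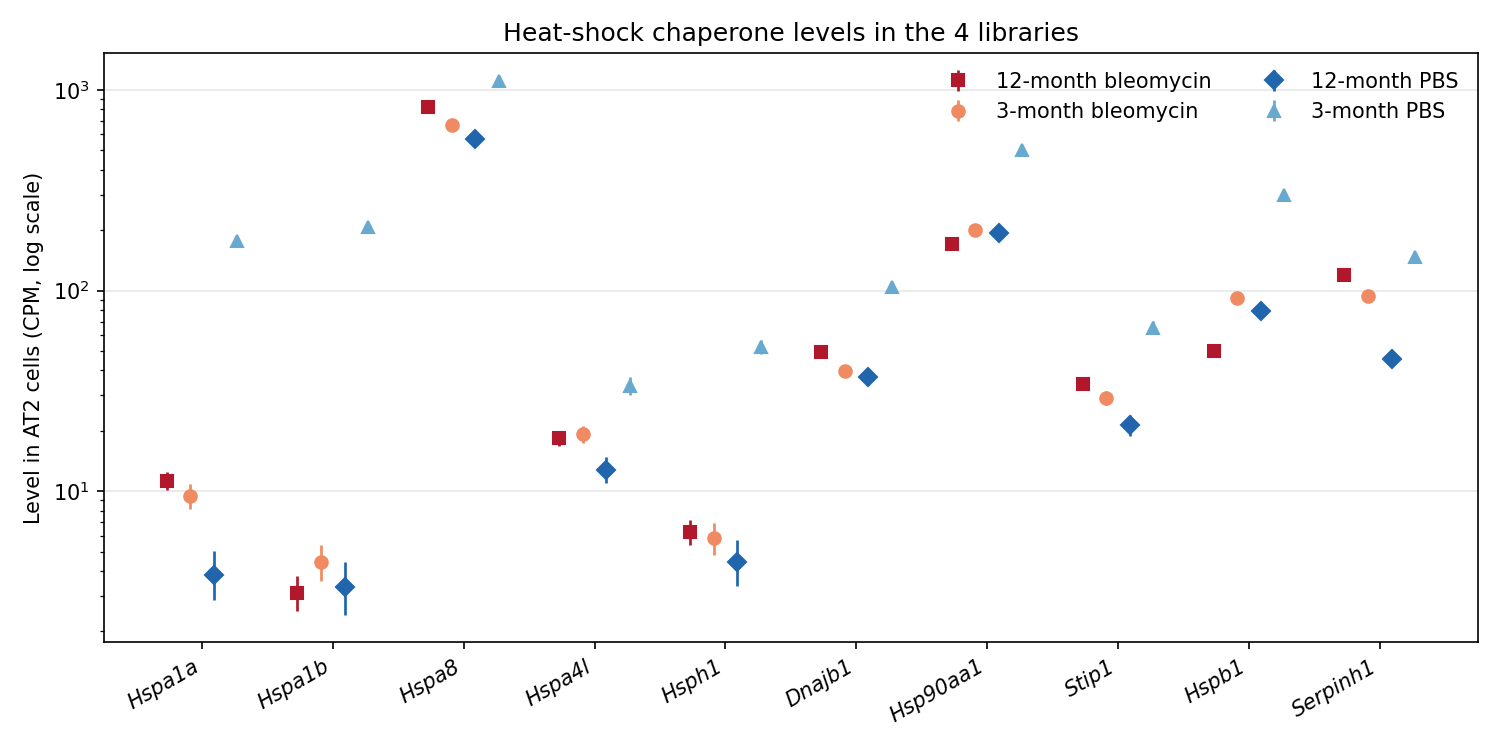
Level of each of the 10 chaperone genes in AT2 cells (CPM, log axis) in the 4 libraries, in the order of the legend from left to right; points are 1 library each and bars are exact 95% Poisson intervals. The 3-month PBS library is the highest for every gene, by 1.24-fold over the next library for Serpinh1 and by 46.7-fold for Hspa1b.

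The inducible HSP70 genes differed most. Hspa1a stood at 9.41 CPM (8.14 to 10.8) in 3-month bleomycin, against 176 CPM (169 to 185) in 3-month PBS. The intervals of its bleomycin libraries overlapped and the others did not. At 12 months it stood at 11.3 CPM (10.1 to 12.5) with bleomycin and at 3.84 CPM (2.86 to 5.05) with PBS. Hspa1b had 4.42 CPM (3.56 to 5.42) in 3-month bleomycin and 206 CPM (198 to 215) in 3-month PBS, and 3.11 CPM in 12-month bleomycin and 3.31 CPM in 12-month PBS. For Hspa1b the 3 libraries other than 3-month PBS had overlapping intervals between neighbours in level. Bleomycin over PBS was thus 18.8-fold lower for Hspa1a (16.2 to 21.8) and 46.7-fold lower for Hspa1b (37.9 to 58.2) at 3 months. At 12 months Hspa1a was 2.94-fold higher (2.19 to 4.02) and Hspa1b was at 0.939 times its PBS level (0.652 to 1.37).

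Hspa8 encodes HSC70, the HSP70 of unstressed cells, and differed less. It stood at 672 CPM in 3-month bleomycin and 1104 CPM in 3-month PBS, and at 826 CPM in 12-month bleomycin and 569 CPM in 12-month PBS, with no overlap of intervals among the 4 libraries. The 3-month PBS level was 1.34 times that of 12-month bleomycin, the next in order. The log2 ratio of bleomycin to PBS was -0.72 at 3 months and 0.54 at 12 months.

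The cochaperones of HSP70 followed the same order at the top. Hsph1, an HSP110 protein that exchanges nucleotide on HSP70, stood at 5.81 CPM (4.82 to 6.94) in 3-month bleomycin and 52.5 CPM (48.3 to 56.98) in 3-month PBS, a 9.04-fold lower level (7.42 to 11.1). It stood at 6.25 CPM in 12-month bleomycin and 4.44 CPM in 12-month PBS, a ratio of 1.41 (1.05 to 1.92) whose direction turned, to a log2 ratio of -0.23, when cells were thinned to 2000 counts. Hspa4l, its relative in the HSP110 family, stood at 19.2 CPM in 3-month bleomycin and 33.4 CPM in 3-month PBS, and at 18.3 CPM in 12-month bleomycin and 12.8 CPM in 12-month PBS. Bleomycin over PBS was 1.74-fold lower at 3 months and 1.43-fold higher at 12 months, and its bleomycin libraries had overlapping intervals. Dnajb1, the J-domain protein that hands clients to inducible HSP70, had 39.5 CPM in 3-month bleomycin and 104 CPM in 3-month PBS, and 49.5 CPM in 12-month bleomycin and 36.9 CPM in 12-month PBS. It was 2.63-fold lower with bleomycin at 3 months (2.41 to 2.89) and 1.34-fold higher at 12 months (1.21 to 1.48), and the intervals of its lowest levels, in 3-month bleomycin and 12-month PBS, overlapped.

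Hsp90aa1, the inducible HSP90 alpha, stood at 201 CPM in 3-month bleomycin and 501 CPM in 3-month PBS, and at 171 CPM in 12-month bleomycin and 194 CPM in 12-month PBS. The 3-month bleomycin and 12-month PBS intervals overlapped. Stip1, the adaptor that links HSP70 to HSP90, had 29.2 CPM in 3-month bleomycin and 65.2 CPM in 3-month PBS, and 34.4 CPM in 12-month bleomycin and 21.3 CPM in 12-month PBS. Bleomycin over PBS was 2.49-fold lower for Hsp90aa1 (2.40 to 2.60) and 2.23-fold lower for Stip1 (1.998 to 2.49) at 3 months. At 12 months Stip1 was 1.61-fold higher (1.42 to 1.85), while Hsp90aa1 was 1.13-fold lower (1.08 to 1.19).

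Hspb1 encodes a small heat-shock protein that holds unfolded proteins without ATP. It stood at 91.3 CPM in 3-month bleomycin and 300.2 CPM in 3-month PBS, and at 50.2 CPM in 12-month bleomycin and 79.5 CPM in 12-month PBS. It was lower with bleomycin at both ages, 3.29-fold at 3 months (3.10 to 3.48) and 1.58-fold at 12 months (1.46 to 1.71). Serpinh1 encodes HSP47, the collagen chaperone of the endoplasmic reticulum, and had 93.5 CPM in 3-month bleomycin and 147 CPM in 3-month PBS, a 1.57-fold lower level. It stood at 119 CPM in 12-month bleomycin and 45.7 CPM in 12-month PBS, a 2.60-fold higher level with bleomycin (2.39 to 2.84). No intervals overlapped among the 4 libraries for either gene.

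A gene entered the counts below if either library of a comparison had 20 CPM or more of it, and it was taken as higher or lower if the levels were 2-fold apart. In 3-month bleomycin over 3-month PBS all 10 chaperones reached that level, and 7 were at least 2-fold lower and 0 higher. Over all 4796 genes counted, 3.34% were lower by that rule and 2.71% higher. Hspa8, Hspa4l and Serpinh1 were below 2-fold. Hspa1a, Hspa1b, Hsph1 and Hspa4l were under 20 CPM in 3-month bleomycin and entered the count only through 3-month PBS, where they were high. The median log2 ratio was -1.36 over the 10 genes and -0.01 over all genes counted. As the genes were chosen with this contrast known, nothing is read from that count.

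In 12-month bleomycin over 12-month PBS, 6 of the 10 reached 20 CPM in 1 of the libraries, of which 1, Serpinh1, was at least 2-fold higher and 0 were lower. The share of all 4701 genes counted was 6.91% higher and 3.96% lower. Intervals lay above 0 on the log2 scale for 7 of the 10 genes at any level, below 0 for Hsp90aa1 and Hspb1, and spanned 0 for Hspa1b. Some marker lists of other cells were higher in the same AT2 cells of 12-month bleomycin than of 12-month PBS, and others were lower. Club markers summed to 5409 CPM with bleomycin and 7276 CPM with PBS. Ciliated markers summed to 96.7 and 197 CPM and endothelial markers to 5.02 and 5.94 CPM in that order. Macrophage markers summed to 116 CPM with bleomycin (10 of 10 detected) and 26.6 CPM with PBS (8 of 10, with Marco and Adgre1 at 0), and T or NK markers to 55.1 and 7.98 CPM (6 of 6 in both). B cell markers summed to 146 CPM with bleomycin (5 of 5) and 27.2 CPM with PBS (4 of 5, with Ms4a1 at 0), neutrophil markers to 112 and 16.0 CPM (4 of 4 in both) and transitional alveolar markers to 1001 and 414 CPM (5 of 5 in both). With cells that had a macrophage marker count left out, Serpinh1 had a log2 ratio of 1.37, Hspa1a 1.91, Hspb1 -0.46 and Hspa1b 0.26. The part of the other markers in these ratios and in those of the other lists at 12 months was not tested. The difference between the ages in the log2 ratio, 12 months minus 3 months, was above 0 for all 10 genes, from 1.05 (Hspb1) to 5.77 (Hspa1a) with a median of 1.83. It has no test because each term is 1 library, and 3-month PBS enters every one of these differences.

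Between the ages without injury, 12-month PBS over 3-month PBS, 9 of the 10 genes were at least 2-fold lower and 0 higher, against 0.795% lower and 0.862% higher of 4526 genes counted. The median log2 ratio was -1.65 over the 10 genes and -0.11 over all genes counted. Hspa1a, Hspa1b, Hsph1 and Hspa4l were under 20 CPM in 12-month PBS and entered the count only through 3-month PBS, where they were high. As the genes were chosen with the levels of 3-month PBS known, nothing is read from that count. Hspa1b was 62.3-fold lower (46.2 to 85.97), Hspa1a 46.0-fold (34.8 to 61.99) and Hsph1 11.8-fold (9.03 to 15.7). Hspb1 was 3.78-fold lower, Serpinh1 3.22-fold, Stip1 3.06-fold, Dnajb1 2.82-fold, Hspa4l 2.61-fold and Hsp90aa1 2.58-fold, while Hspa8, at 1.94-fold lower (1.88 to 1.996), was below the limit.

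For these 10 genes the ages were closer after bleomycin than with PBS, a contrast that rests on the 3-month PBS library. In 12-month over 3-month bleomycin, 0 of the 6 genes that reached 20 CPM were 2-fold apart in either direction, against 2.12% higher and 0.458% lower of 4586 genes counted. For 6 genes that count is near the share of all genes, so nothing is read from it. The log2 ratios of the 10 genes ran from -0.86 for Hspb1 to 0.35 for Serpinh1. For Hspa4l and Hsph1 the interval of the ratio spanned 0. Hspa1a was 1.20-fold higher (1.004 to 1.43). Hspa1b, under 20 CPM in both libraries, had a log2 ratio of -0.51, which was -1.23 with cells thinned to 2000 counts.

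**Figure D2:**
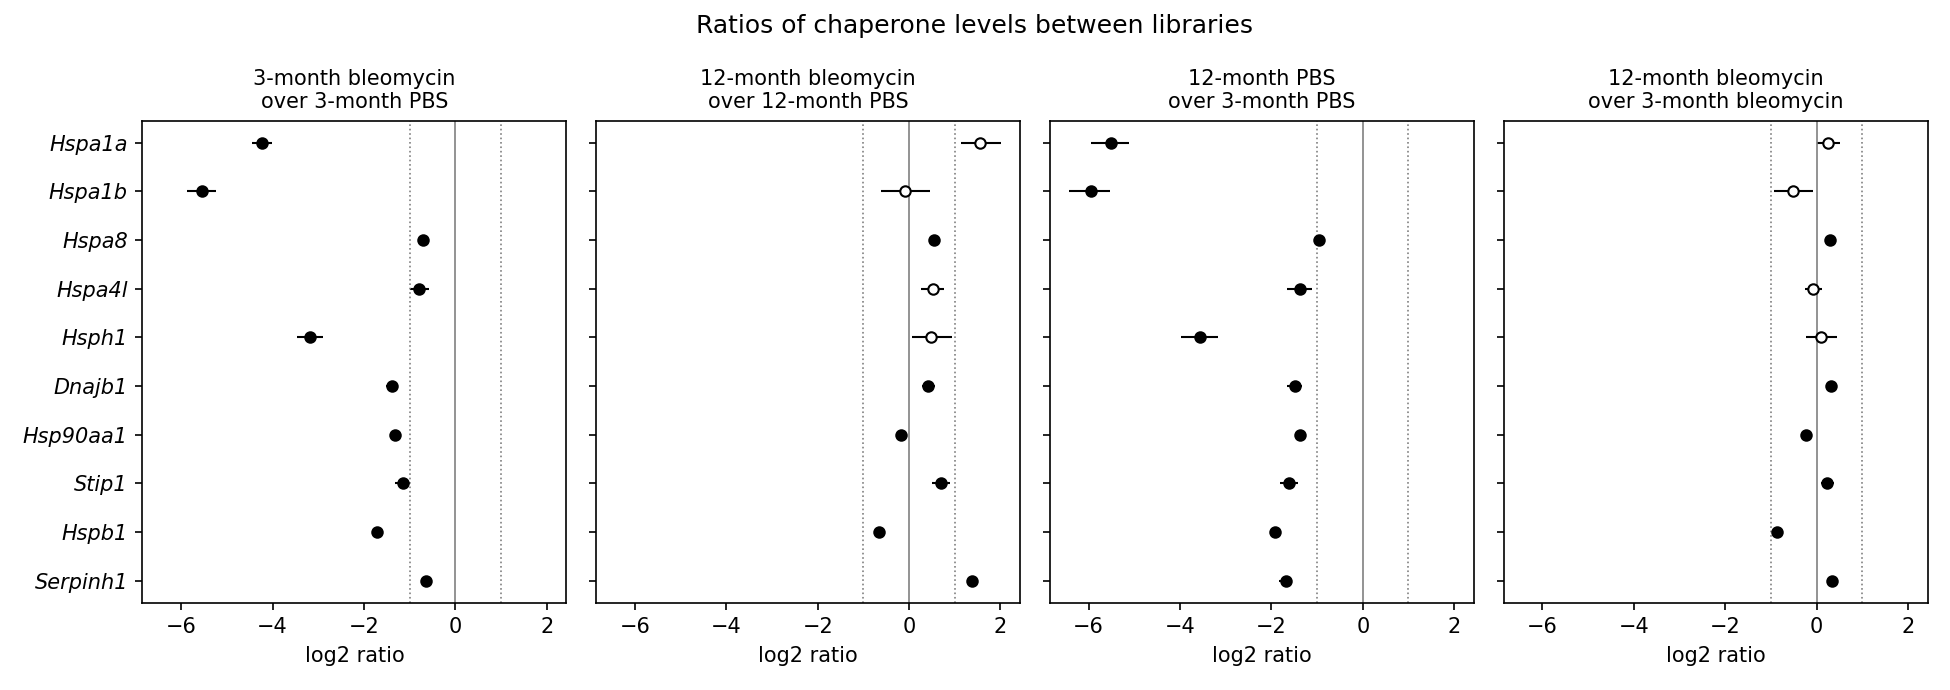
Log2 ratios of the summed level of each gene in the 4 comparisons; points are ratios of 1 library to 1 library, bars exact conditional-binomial 95% intervals, dotted lines 2-fold and open points genes under 20 CPM in both libraries. All 10 ratios lie below 0 in both comparisons that contain 3-month PBS, and between -0.86 and 1.54 in those that do not.

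Levels per cell were compared at equal depth. Cells were thinned to 3000 counts each, which left out 0 cells of 12-month bleomycin, 55 of 3-month bleomycin, 242 of 12-month PBS and 356 of 3-month PBS. At least 1 count of Hspa1a or Hspa1b was then found in 3.84% of cells in 12-month bleomycin (3.11 to 4.67, Clopper-Pearson), 3.79% in 3-month bleomycin (3.04 to 4.66), 2.02% in 12-month PBS (1.49 to 2.68) and 51.9% in 3-month PBS (49.7 to 54.1). The median cell had counts of 2 of the 10 genes in each of the other libraries and of 4 in 3-month PBS. Summed over the 10 genes, the median was 3 counts per cell in each of the other libraries and 7 in 3-month PBS, and the 90th percentiles were 7, 6, 5 and 14 in the order of the shares above.

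The highest counts per cell were also those of 3-month PBS, where 99 of 1952 thinned cells (5.07%, 4.14 to 6.14) had 5 or more counts of Hspa1a plus Hspa1b, with a highest value of 17. In 12-month bleomycin and 12-month PBS 0 cells did, with upper Clopper-Pearson limits of 0.150% and 0.158%, and in 3-month bleomycin 1 of 2244 did. The variance of Hspa1a plus Hspa1b over cells was 2.55 times its mean in 3-month PBS, against 1.24 in 12-month bleomycin, 1.46 in 3-month bleomycin and 0.98 in 12-month PBS. The means were 1.14, 0.0433, 0.0446 and 0.0202 counts in the same order. This ratio stays near 1 where the mean is near 0, so it does not show in which library cells were most uneven.

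Before thinning, Hspa1a had a count in 9.96% of cells in 12-month bleomycin, 6.09% in 3-month bleomycin, 1.83% in 12-month PBS and 38.95% in 3-month PBS. At 3000 counts per cell the expected shares were 2.99%, 2.31%, 1.11% and 31.1%. Depth enters such shares. For Serpinh1, 66.6% of cells in 12-month bleomycin and 46.9% in 3-month PBS had a count of it at full depth, but 27.2% and 33.8% were expected to at 3000 counts. Hspa8 was expected in 86.9% of cells in 12-month bleomycin, 79.5% in 3-month bleomycin, 76.95% in 12-month PBS and 92.4% in 3-month PBS. No cell type of these libraries should lack these genes, so background from free RNA has no measure here. Among cells below the Sftpc limit, Hspa1a had a count in 11.05% of cells in 12-month bleomycin, 8.62% in 3-month bleomycin, 3.43% in 12-month PBS and 43.0% in 3-month PBS, at median depths of 7439, 5161, 3524 and 3607.5 counts.

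**Figure D3:**
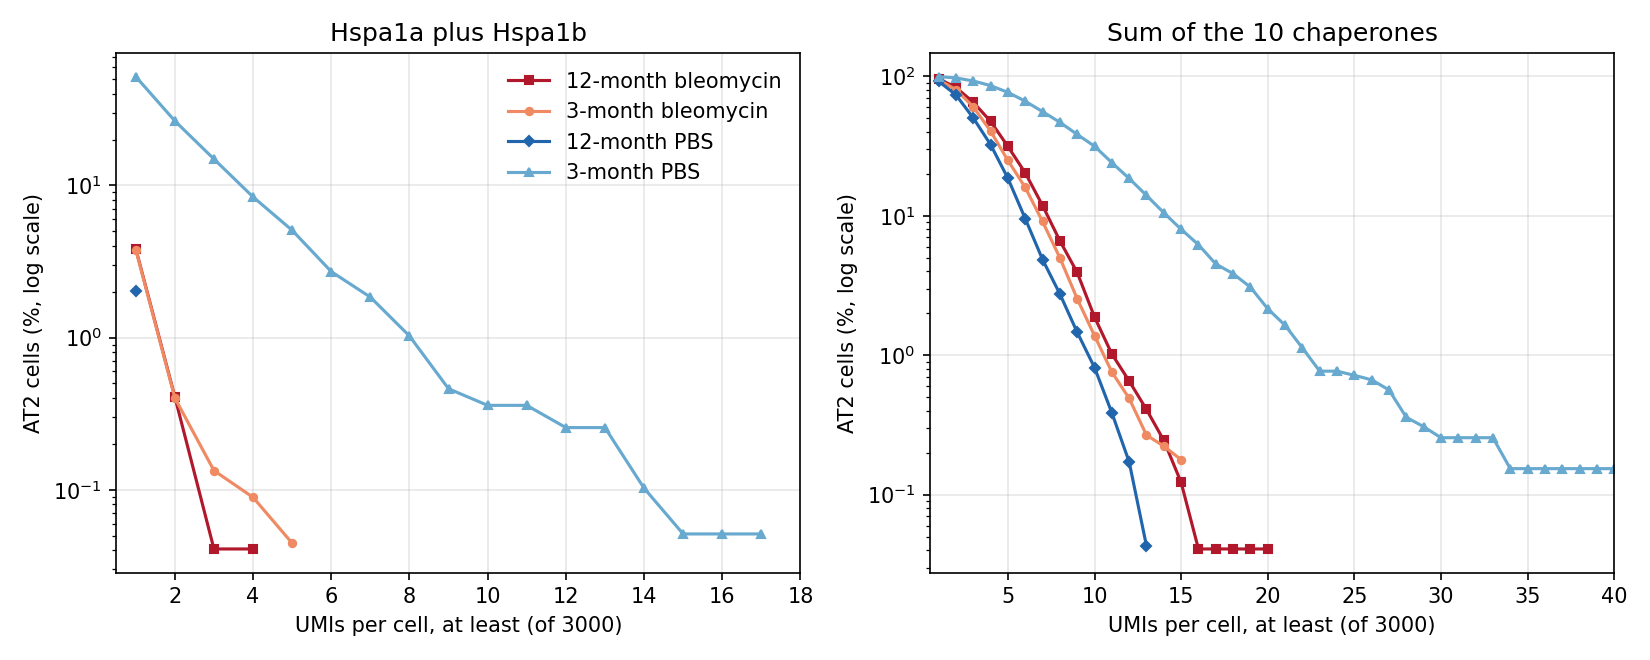
Percent of AT2 cells (log axis) with at least the number of counts on the x axis after thinning to 3000 counts per cell, for Hspa1a plus Hspa1b (left) and the sum of the 10 genes (right, shown up to 40 counts); each line is 1 library. The 3-month PBS line lies above the others from 1 count on, at 51.9% for 1 count of Hspa1a or Hspa1b.

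Across single cells of 3-month PBS the genes went together weakly. Pearson's r of log(1 + counts) over 1952 thinned cells of that 1 library was 0.30 between Hspa1a and Hspa1b, the highest of 45 pairs, with a median of 0.05. In the other 3 libraries the highest r of any pair was 0.11, 0.08 and 0.07. Hspa1a had a count in only 3.06% of thinned cells of 12-month bleomycin, 2.45% of 3-month bleomycin and 1.07% of 12-month PBS. In 3-month PBS it had one in 30.5%. Counts this sparse hold r near 0, so r of pairs with Hspa1a does not tell the libraries apart. Genes found in more cells differed by pair. For Hspa8 and Hsp90aa1, r was 0.05 in 12-month bleomycin, 0.003 in 3-month bleomycin, 0.01 in 12-month PBS and 0.15 in 3-month PBS. For Hspa8 and Serpinh1 it was 0.11, 0.04, 0.05 and 0.10 in that order. What sets these values was not tested. The genes most like Hspa1a plus Hspa1b in 3-month PBS, of 4865 genes with a count in at least 5% of cells, were Hsp90ab1 (r = 0.21), Hspb1 (0.21), Hspa8 (0.20) and Hsp90aa1 (0.16). Dnaja1 (0.13), Serpinh1 (0.13) and Dnajb1 (0.11) followed, and further down Rpn1, Tmed2, Spns1, Mapkbp1, Tnfrsf12a, Hspe1 and mt-Co2, all from 0.08 to 0.09. In 12-month bleomycin, 3-month bleomycin and 12-month PBS, the 9 genes named here outside the chaperone group had r between -0.06 (mt-Co2 in 3-month bleomycin) and 0.06 (Dnaja1 in 12-month bleomycin). The 9 were picked by their r in 3-month PBS, so lower values elsewhere follow in part from that choice. Stip1 ranked 159 in 3-month PBS. Values this low in sparse counts describe the cells of 1 library and no more.

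The cells left out by the Sftpc limit were measured in the same way. These were 543 cells in 12-month bleomycin, 325 in 3-month bleomycin, 175 in 12-month PBS and 86 in 3-month PBS. Hspa1a stood in them at 17.6 CPM (14.1 to 21.6), 24.5 (18.8 to 31.5), 13.2 (6.56 to 23.5) and 266 CPM (218 to 322) in that order, and Hspa1b at 5.93, 11.3, 4.78 and 196 CPM. The 3-month PBS library was thus also the highest among cells that were not AT2 by this rule.

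Of those cells, each was set to the marker list with the most counts in it, with at least 5, a rule written after the levels were known. The AT2 and erythroid lists were not among the choices, so a cell just below the Sftpc limit could not be set to AT2. In AT2 cells of 3-month PBS, AT1 markers summed to 2378 CPM and club markers to 4914 CPM. Cells set to the AT1 or club list may therefore be AT2 cells. In cells with AT1 markers (the flat gas-exchange cell), Hspa1a plus Hspa1b had 34.9 CPM in 12-month bleomycin (67 cells), 14.4 in 3-month bleomycin (78 cells), 0 counts in 12-month PBS (23 cells, up to 40.9 CPM allowed by 3 counts) and 319 CPM in 3-month PBS (24 cells). With club markers the levels were 10.4, 12.2, 5.40 and 478 CPM. Ciliated markers marked 9 cells in 3-month PBS, with 442 CPM (266 to 690.1) of these genes, 488 CPM of Hsph1 and 1605 CPM of Dnajb1. Endothelial markers marked 11 cells there, with 2214 CPM (1589 to 3004), against 55.8 in 12-month bleomycin, 112 in 3-month bleomycin and 181 in 12-month PBS.

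**Figure D4:**
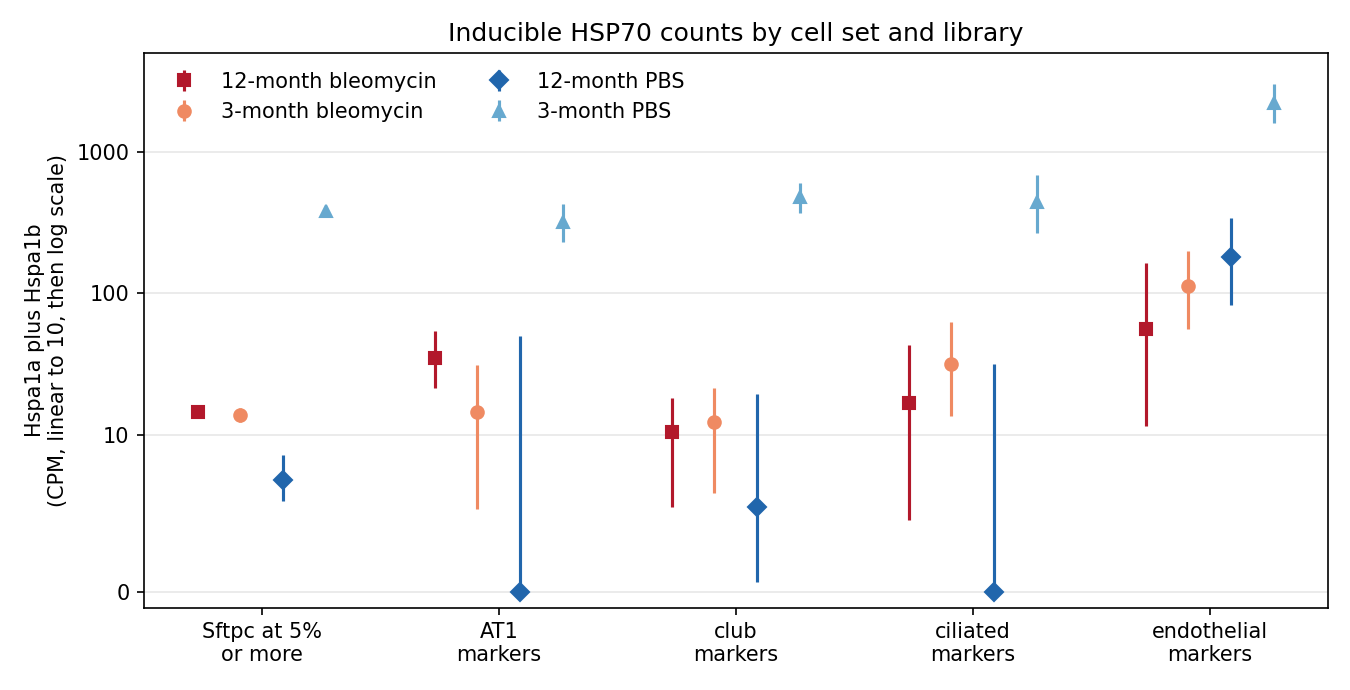
Level of Hspa1a plus Hspa1b (CPM, axis linear to 10 and logarithmic above) in AT2 cells by the Sftpc limit and in cells below it. The cells below it are grouped by their most counted marker list, with no AT2 list among the choices, so AT2 cells may be among them. Points are 1 library each and bars exact 95% Poisson intervals. The cell sets shown are AT2 and 4 others, and in each of them the 3-month PBS library is the highest, from 319 to 2214 CPM.

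Other genes of the proteostasis network were taken from 8 lists, chosen with earlier results of these data known, so nothing is read from their counts. Of all genes counted, 3.34% were at least 2-fold lower and 2.71% higher in 3-month bleomycin over 3-month PBS. In 12-month bleomycin over 12-month PBS these shares were 3.96% and 6.91%, and in 12-month PBS over 3-month PBS 0.795% and 0.862%. Of 27 other cytosolic chaperones and cochaperones, 23 reached 20 CPM in 3-month bleomycin or 3-month PBS, and 6 were lower by 2-fold and 0 higher with bleomycin. Their median log2 ratio was -0.62. Chordc1, a cochaperone of HSP90, stood at 12.9 CPM in 3-month bleomycin and 36.9 CPM in 3-month PBS. Bag3, which couples HSP70 to autophagy, stood at 15.6 CPM with bleomycin and 43.96 CPM with PBS. Some of the 6 lower genes, among them Chordc1 and Bag3, were under 20 CPM with bleomycin and entered the count only through 3-month PBS. Dnaja1, another J-domain protein, stood at 166 CPM with bleomycin and 416 CPM with PBS, and Cacybp at 66.2 CPM with bleomycin and 143 CPM with PBS. In 12-month PBS over 3-month PBS, 7 of 22 were at least 2-fold lower and 0 higher. Some of these, among them Chordc1 at 15.5 CPM in 12-month PBS, entered the count only through 3-month PBS, where they were high. In 12-month bleomycin over 12-month PBS the list had 0 of 21 past 2-fold in either direction and a median of 0.14. The highest of its ratios there was that of the small heat-shock protein Cryab, at 134 CPM with bleomycin and 75.7 CPM with PBS. Hspbp1 was 1.55-fold higher, Hspa14 had a log2 ratio of 0.58 and Hspa13 was 1.37-fold lower.

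Of the heat-shock factor list (Hsf1, Hsf2 and Hsbp1), only Hsbp1, a protein that binds HSF1 trimers, reached 20 CPM, with 256 CPM in 3-month bleomycin and 249 CPM in 3-month PBS. At 12 months it stood at 280 CPM with bleomycin and 207 CPM with PBS.

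Of the TRiC chaperonin, which folds actin and tubulin, 0 of 7 measured subunits were past 2-fold in 3-month bleomycin over 3-month PBS, with a median of 0.06. The highest was Cct3, at 1.19-fold higher, and Tcp1 was 1.08-fold lower. Of 7 mitochondrial chaperones 0 were past 2-fold. Hspe1 was 1.49-fold and Hspd1, its partner in the mitochondrial chaperonin, 1.32-fold lower with bleomycin, Dnaja3 1.27-fold lower and Trap1 1.32-fold higher. Of 14 endoplasmic reticulum chaperones 0 were past 2-fold, with a median of 0.29: Dnajb11 and Calr (calreticulin) were both 1.85-fold higher, P4hb 1.46-fold higher and Dnajb9 1.44-fold lower.

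With bleomycin at 12 months, 3 of 14 endoplasmic reticulum chaperones were higher by 2-fold and 0 were lower. The median log2 ratio of the list was 0.78 beside 0.10 over all genes counted. The 3 were Calr (2.35-fold, at 467 CPM with bleomycin and 198 CPM with PBS), Dnajb11 (2.30-fold) and Sdf2l1 (2.23-fold), and Pdia4 was 1.79-fold higher. Of the TRiC subunits, Cct3 was 2.02-fold higher and the other 6 were under 2-fold, Cct8, Cct7 and Cct5 at 1.67-fold, 1.43-fold and 1.37-fold higher. Of 6 measured mitochondrial chaperones 0 were past 2-fold, among them Grpel1 (1.42-fold higher), Hspd1 (1.16-fold higher), Trap1 (1.20-fold lower) and Hspa9 (1.17-fold lower).

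Collagens are the clients of Serpinh1. In 3-month bleomycin over 3-month PBS, 7 of 17 collagens and collagen modifying enzymes were measured, of which Col6a2 (6.52-fold) and Col6a1 (2.56-fold) were at least 2-fold higher and the prolyl hydroxylase P4ha1 was 2.11-fold lower. Col4a4 was 1.58-fold lower. At 12 months 8 were measured: Col6a2 was 6.18-fold and Col6a1 2.50-fold higher, Col4a4 2.33-fold lower and the lysyl hydroxylase Plod3 had a log2 ratio of 0.97. Mesenchymal markers summed to 7.60 CPM in 12-month bleomycin, 6.34 in 3-month bleomycin, 0.301 in 12-month PBS and 0.459 in 3-month PBS in these cells, with 5, 4, 3 and 2 of 5 markers detected. Their part in the levels of Serpinh1 and of the collagens was not tested.

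Immediate early genes, which dissociation is also known to induce, were another of the lists. The part of dissociation in their levels was not tested. Of 18 measured, 6 were 2-fold higher and 1 was lower in 3-month bleomycin over 3-month PBS (median log2 ratio 0.34). At 12 months 7 were higher and 0 lower (median 0.81). At 3 months the largest ratios were those of Klf4 (2.93-fold), Cyr61 (2.84-fold), Fosb (2.72-fold) and Socs3 (2.26-fold), and at 12 months those of Cyr61 (8.20-fold), Ier3 (3.65-fold), Atf3 (3.19-fold) and Gadd45b (2.87-fold). Summed over 18 genes the list stood at 4542 CPM in 12-month bleomycin, 3150 in 3-month bleomycin, 3395 in 12-month PBS and 2967 in 3-month PBS. Single genes went against this order, among them the 1 that was at least 2-fold lower in 3-month bleomycin than in 3-month PBS. Others were lower there by less than 2-fold, with log2 ratios from -0.46 to -0.10.

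Of the oxidant, metal and proteasome stress genes, 11 of 12 were measured in both comparisons of bleomycin with PBS. At 3 months 1 was at least 2-fold higher (Psmd12, 2.01-fold), followed by Psmd1 (1.83-fold), Psma1 (1.54-fold) and the ubiquitin gene Ubb (1.47-fold). At 12 months 2 were: the metallothionein Mt2 at 6.63-fold and Psmd1 at 2.10-fold, beside Psmd12 at 1.98-fold and Mt1 at 1.97-fold. In 12-month PBS over 3-month PBS 1 of 10 was at least 2-fold lower and 0 higher. This was Mt2, at 15.8 CPM in 12-month PBS and 34.9 CPM in 3-month PBS, which entered the count only through 3-month PBS.

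**Figure D5:**
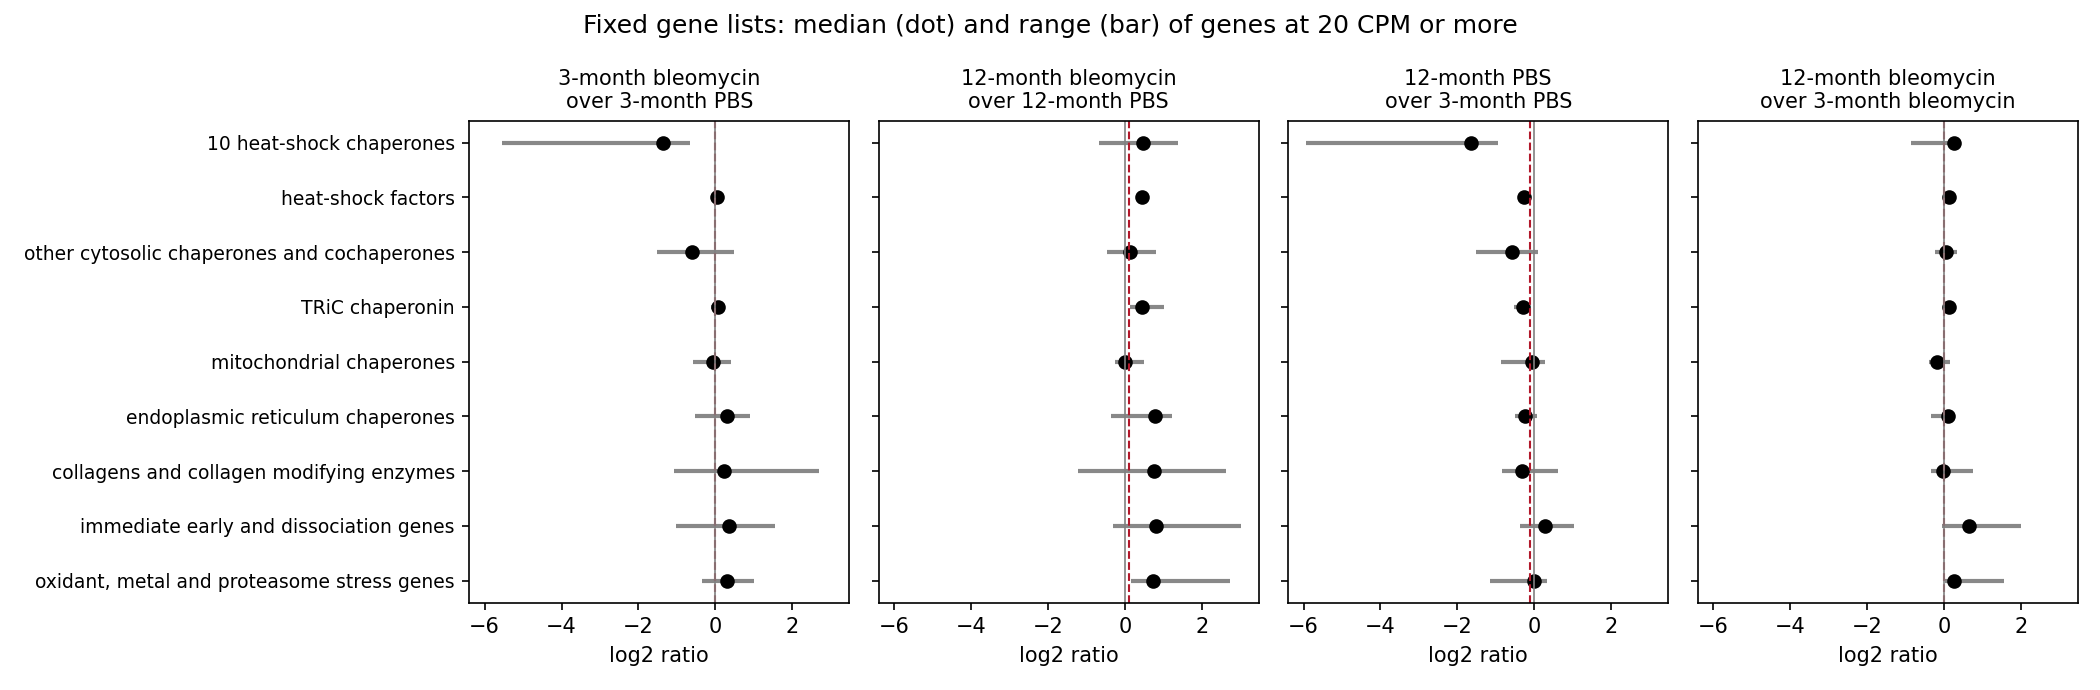
Median (dot) and range (bar) of log2 ratios of the genes at 20 CPM or more on each list in the 4 comparisons; the dashed line is the median of all genes counted. The 10 chaperones have medians of -1.36 and -1.65 in the comparisons that contain 3-month PBS. They were chosen with these levels known, so nothing is read from their place among the lists.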

How the data were processed

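The authors deposited raw UMI counts (unique molecular identifiers) for each gene and cell barcode, with no normalization. The submitters' processing notes name Cell Ranger, whose version is not given here, Seurat 3.2.2 and the mm10 build. Counts were summed over the AT2 cells of each library and scaled to that library's total, which was 31849343 in 12-month bleomycin, 20832613 in 3-month bleomycin, 13289829 in 12-month PBS and 10896642 in 3-month PBS, so that 1 count equals 0.0314, 0.048, 0.0752 and 0.0918 CPM. Log2 ratios use a prior of 0.5 counts, and fold values use none. Intervals of levels (Poisson), ratios (conditional binomial) and shares (Clopper-Pearson) are exact 95% intervals for counting error, and differences of log2 ratios have Wald intervals. No test was made, each group being 1 library, and the floor for 0 counts is 3 counts. Thinning drew counts without replacement with a fixed seed. Doublets were kept, and the 0.8% per 1000 barcodes with the highest Scrublet scores (scanpy 1.11.5) were left out in an alternative. The self-written steps were tested on simulated data. Python 3.11.15, numpy 2.4.6, scipy 1.17.1, pandas 2.3.3 and matplotlib 3.10.9 were used.

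The 10 genes and the lists were chosen with earlier results of these data known. Named list genes are up to 4 measured genes per list with the largest absolute log2 ratio of bleomycin to PBS at each age, and genes like Hspa1a plus Hspa1b are the 10 highest correlations outside the 10 chaperones, of which 1 is not reported here. Cct6a of the TRiC list was not analysed here. The alternatives were 2 other scalings, other limits on cells and on Sftpc, called doublets left out, equal weight per cell, thinning, cells with macrophage marker counts left out, other level limits, and shared barcodes left out, the last chosen after seeing the data.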

Additional observations from a re-analysis of the deposited data

Results flagged for a closer look

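For 7 of the 10 genes the bleomycin to PBS ratio had opposite signs at the 2 ages, with both counting intervals away from 0. For Hsph1 this did not hold with cells thinned to 2000 counts, where its ratio at 12 months was also below 0 (-0.23). The log2 ratio at 12 months minus that at 3 months was 5.77 for Hspa1a, 3.66 for Hsph1, 2.03 for Serpinh1, 1.85 for Stip1, 1.82 for Dnajb1, 1.31 for Hspa4l and 1.25 for Hspa8. These differences between the ages were not tested, since each group is 1 library. The 3-month PBS library enters each of them, and it was also the highest library for these genes in cells outside the Sftpc limit, though not beyond counting error for Hspa4l (79.7 CPM in 3-month bleomycin and 82.1 CPM in 3-month PBS) and for Serpinh1 (199.9 CPM in 12-month bleomycin and 246 CPM in 3-month PBS).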

How the results depend on the processing

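The count of chaperones past 2-fold stayed within 1.5 times its main value in all 4 comparisons under each alternative, except that without a level limit 2 were at least 2-fold higher in 12-month bleomycin over 12-month PBS, Hspa1a being added. Over the 13 alternatives that recompute ratios, all 10 genes kept their sign in 3-month bleomycin over 3-month PBS and in 12-month PBS over 3-month PBS. Hspa1b and Hsph1 did not in 12-month bleomycin over 12-month PBS (-0.69 to 0.26 and -0.23 to 0.51), nor did Hspa1a, Hspa4l and Hsph1 in 12-month over 3-month bleomycin, and Hspa1b there ran from -1.23 (cells thinned to 2000 counts) to -0.26. The cause was not tested. Hspa1b in 3-month bleomycin over 3-month PBS ran from -5.57 to -5.18 and Hspa1a from -4.32 to -4.02. Counts of all genes past 2-fold moved with the level limit, by construction. With 100 CPM they were 60 lower and 33 higher (3-month bleomycin over 3-month PBS), 59 and 95 (12-month bleomycin over 12-month PBS), 13 and 12 (12-month PBS over 3-month PBS) and 8 and 37 (12-month over 3-month bleomycin). With 10 counts as the only limit they were 672 and 1151, 845 and 2025, 449 and 436, and 388 and 1033 in the same order. Without the Sftpc rule 59 genes were at least 2-fold higher in 12-month PBS over 3-month PBS. Median-of-ratios scaling moved the median log2 ratio of all genes in 12-month PBS over 3-month PBS to -0.01, against -0.11 with totals. Hsph1 and Hspa1b rest on 59 and 44 counts in 12-month PBS, which limits their ratios there. No paired analysis was possible because each group is 1 library with no replicate number.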

Other observations

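Of the counts assigned to either inducible HSP70 gene, Hspa1a held 78.4% of 458 in 12-month bleomycin (74.3 to 82.1, Clopper-Pearson), 68.1% of 288 in 3-month bleomycin (62.3 to 73.4), 53.7% of 95 in 12-month PBS (43.2 to 63.98) and 46.1% of 4170 in 3-month PBS (44.6 to 47.6). The 3-month PBS library was thus the one with the lowest share for Hspa1a, although its interval overlaps that of 12-month PBS.

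Over 1952 thinned cells of 3-month PBS, Hspa1a plus Hspa1b had a Pearson r of 0.09 with the mitochondrial share of a cell, -0.05 with log depth, -0.08 with the Sftpc share and 0.01 with the summed immediate early genes, all from the same library.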
